A study of Mus musculus with 74 samples.

Results

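Acetylation of lysine 27 on histone H3 (H3K27ac) was measured by ChIP-seq in quadriceps muscle of 6 C57BL/6 mice, 3 with an inducible Bcl6 knockout (labelled imKO_1794, imKO_1802 and imKO_1803) and 3 Cre-negative animals (labelled Ctr_1795, Ctr_1801 and Ctr_7362), which are 6 of the 74 samples of the series. These are the libraries of the chronic series, which the column headers mark as 12 weeks. Every antibody library of that series was used, with every one of the 73866 merged regions in which their tags were counted. The knockout mice carried the labelled genotype AEC-Esr Cre (+):Bcl6 fl/fl and the Cre-negative mice Bcl6 fl/fl, so both groups carried floxed Bcl6 alleles, and both received TMX (tamoxifen). The labels give no ages and do not spell out the promoter that drives Cre. Each library came from 1 animal of a bulk tissue in which muscle nuclei are mixed with nuclei of other cells, so fewer acetylated nuclei and less acetylation per nucleus cannot be told apart. An acute series of 3 knockout and 3 Cre-negative mice of the same genotypes, marked as 1 week, and 1 BCL6 ChIP-seq library from quadriceps of an untreated wild-type mouse served for comparison.

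BCL6 is a zinc-finger repressor that binds DNA and recruits corepressor complexes (NCOR, SMRT and BCOR) with histone deacetylase HDAC3, which removes acetyl groups from histones. H3K27ac marks active promoters and enhancers. In muscle and liver, growth hormone signals through STAT5, whose binding sequence (TTC and GAA around 3 free bases) overlaps that of BCL6. Socs2, Cish and Igf1 are classical targets of growth hormone signalling. Socs2 and Cish encode feedback inhibitors of the receptor.

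Promoters with a raised region within 1000 bp of the start are shown by their DNA, because promoters are the raised elements for which sequence was at hand. Of these, 5 were chosen, after their values were seen, for a BCL6 peak in the window or, for Chrna9, as a case without one. Only Stc2 of the 5 also passed in the separate fit of summed promoters given below. The 250 bases before an annotated start are printed 5′ to 3′ on the gene's strand (RefSeq, GRCm38.p6), with each match to TTC, any 3 bases and GAA in capitals. This motif reads the same on both strands, and 2306 of 32851 promoter windows of that length (7.02%) held it. Of the 12 genes with a raised region within 1000 bp of their start, 9 matched the sequence table. The windows of Aebp1, Akt1, Pdgfc and Usp46, not printed, held no match and no base of a BCL6 peak. They lay outside the raised regions, and the raised region of Aebp1 itself overlapped a BCL6 peak. Igfals has 3 annotated starts: the window of 1 held a match and a peak, that of another a match alone and that of the third neither. Cyp2j11, which encodes a cytochrome P450, is at chr4:96348681-96348930 on the minus strand, and its window held 1 match and 161 bases of a BCL6 peak. Igfals, which encodes the subunit that stabilises IGF1 in the circulation, is at chr17:24877981-24878230 on the plus strand, with 1 match and 172 bases of a BCL6 peak. Gpat3, which encodes a glycerol-3-phosphate acyltransferase, is at chr5:100845979-100846228 on the plus strand, with no match and 113 bases of a BCL6 peak. Stc2, which encodes the secreted glycoprotein stanniocalcin 2, is at chr11:31370062-31370311 on the minus strand, with no match and 142 bases of a BCL6 peak. This window lay outside the raised promoter region of Stc2, which overlapped no BCL6 peak. Chrna9, which encodes an acetylcholine receptor subunit, is at chr5:65966874-65967123 on the plus strand, with no match and no BCL6 peak.
Cyp2j11: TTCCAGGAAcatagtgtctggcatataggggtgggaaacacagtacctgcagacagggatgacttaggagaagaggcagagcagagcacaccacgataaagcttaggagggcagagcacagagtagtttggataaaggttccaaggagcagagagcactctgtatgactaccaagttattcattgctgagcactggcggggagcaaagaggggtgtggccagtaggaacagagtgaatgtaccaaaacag
Igfals: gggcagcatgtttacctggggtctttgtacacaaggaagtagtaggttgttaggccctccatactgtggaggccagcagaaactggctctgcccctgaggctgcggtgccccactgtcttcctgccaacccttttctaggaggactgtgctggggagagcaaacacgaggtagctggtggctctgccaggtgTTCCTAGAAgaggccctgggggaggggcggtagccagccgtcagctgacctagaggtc
Gpat3: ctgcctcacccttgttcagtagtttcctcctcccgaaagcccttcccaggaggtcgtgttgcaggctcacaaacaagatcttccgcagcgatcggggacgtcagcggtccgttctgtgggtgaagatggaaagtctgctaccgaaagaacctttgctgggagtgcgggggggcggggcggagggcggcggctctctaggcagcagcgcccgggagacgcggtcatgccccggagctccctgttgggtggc
Stc2: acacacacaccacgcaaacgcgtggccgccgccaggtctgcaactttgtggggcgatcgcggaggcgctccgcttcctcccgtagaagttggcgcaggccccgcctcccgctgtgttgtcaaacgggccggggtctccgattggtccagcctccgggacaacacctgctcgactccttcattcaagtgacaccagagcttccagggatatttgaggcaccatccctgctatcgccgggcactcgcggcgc
Chrna9: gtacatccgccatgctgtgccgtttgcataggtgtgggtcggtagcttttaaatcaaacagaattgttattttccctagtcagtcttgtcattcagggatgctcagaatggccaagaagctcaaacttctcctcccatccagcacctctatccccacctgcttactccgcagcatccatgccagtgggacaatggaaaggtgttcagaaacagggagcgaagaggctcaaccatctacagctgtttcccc
A match describes these letters only and was not tested as a binding site. No match was found in the printed windows of Gpat3, Stc2 and Chrna9.

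The libraries held 18333046, 18130100 and 15811120 tags in knockout animals, and 13397363, 7794885 and 23016334 tags in Cre-negative animals Ctr_1795, Ctr_1801 and Ctr_7362. Between 20.1 and 21.1% of knockout tags and between 18.1 and 21.7% of Cre-negative tags lay in the merged regions. Library Ctr_1801 stood apart: 5.87% of regions held no tag in it, against at most 0.586% in any other library, and 1 tag was worth 1.28 units of signal there. Its log2 values correlated with those of the other libraries at r = 0.744 to 0.792 across 30293 regions with a mean signal of at least 20, and the highest correlation between other libraries was 0.901. Regions are not independent replicates, so these correlations are descriptions. Counts of called regions, promoters and genes are given with and without it. Most other results, such as those by BCL6 peak score, by distance to a peak, by locus and by RNA, are given with it alone.

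Acetylation rose in more regions than it fell in. Signal is the number of tags in a region per 10000000 tags of the library, and differences are given as log2(signal + 1), knockout minus Cre-negative, a scale that understates changes of weak regions. Of 67918 regions with a mean signal of at least 5, 113 (0.166%) were raised and 8 (0.0118%) lowered in knockout muscle (limma, Benjamini-Hochberg adjusted p below 0.05). The raised regions differed by 0.86 to 4.40, with a median of 2.13, and lay nearest to 92 genes. Their median signal was 43.95 in knockout animals and 9.33 in Cre-negative animals, whereas the median over all tested regions was 17.8 in knockout animals and 17.4 in Cre-negative animals. The lowered regions differed by -1.21 to -2.68, with a median signal of 8.91 in knockout animals and 34.3 in Cre-negative animals. The median difference over all tested regions was 0.04. Without library Ctr_1801, 336 regions were raised and 64 lowered, among them all 113 and all 8, and the median over all regions was -0.06. Leaving out knockout animal imKO_1794 or imKO_1802 left no call, with 3213 and 3240 regions at an unadjusted p below 0.05, and leaving out imKO_1803 left 6 raised regions. Leaving out Ctr_1795 gave 121 raised and 1 lowered, and leaving out Ctr_7362 gave 126 raised and 2 lowered. A constant variance prior left no call, with 4774 regions at an unadjusted p below 0.05, while quantile normalization gave 257 raised and 50 lowered and edgeR 325 and 55. All 121 regions kept their direction in each of these fits.

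**Figure D1:**
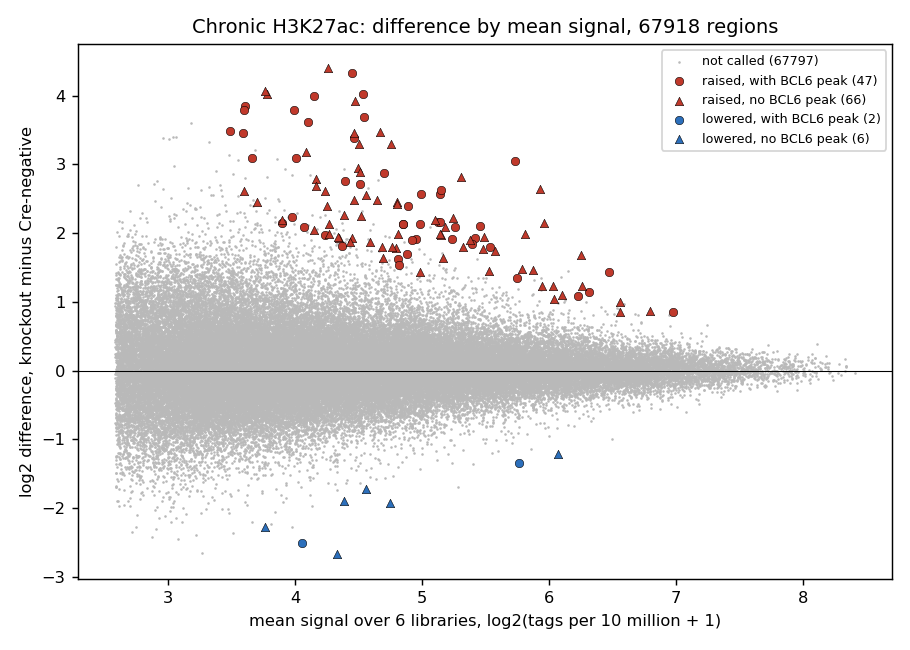
Log2 difference in H3K27ac (knockout minus Cre-negative, y axis) against mean signal over the 6 libraries (x axis, log2 of tags per 10000000 + 1) for the tested regions. The 113 raised regions lie between 0.86 and 4.40 and the 8 lowered regions between -1.21 and -2.68. The median over all tested regions is near 0.04. Some regions that were not called differ by as much, such as a region of Cradd (2.07) and that of Mtss1l (-1.69).

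Of the 113 raised regions, 101 (89.4%) lay more than 1000 bp from the nearest start, close to the 83% of all tested regions that did. They included 56 in introns and 38 between genes, and all 8 lowered regions were distal. The median distance to a start was 19524 bp for raised regions and 17346 bp for all tested regions. As shares of their class, 0.104% of promoter regions, 0.167% of intron regions and 0.190% of intergenic regions were raised. Regions annotated to long terminal repeats of retroviral origin were raised in 7 of 2899 cases (0.241%).

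Among raised regions with a mean signal of at least 20, the largest difference was in an intron of Ctnnbl1, which encodes a splicing-associated protein (86467 bp downstream of its start, chr2:157823618-157824118, mm10). This region overlapped a BCL6 peak. Its signal was 43.1, 30.3 and 47.4 in knockout animals, against 0, 1.28 and 2.61 in Cre-negative animals, a log2 difference of 4.33 ± 0.54 (SE, adjusted p = 0.00250). Every knockout animal was above every Cre-negative animal, as in all 113 raised regions; over all tested regions, 6.68% lacked overlap in this direction and 5.88% in the other. The Ctnnbl1 locus held 4 raised regions within 28.2 kb.

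A region in an intron of Vps8, which encodes a subunit of an endosomal tethering complex, had the smallest adjusted p. Its signal was 94.4, 98.7 and 86.7 in knockout animals, against 6.72, 17.96 and 9.12 in Cre-negative animals, and the difference was 3.05 ± 0.32 (SE, adjusted p = 0.000992). The region overlapped a BCL6 peak. The knockout values lay close together, and the highest Cre-negative value was that of animal Ctr_1801.

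Far downstream of Pdgfc, a platelet-derived growth factor gene, a region over a BCL6 peak had 62.7, 37.0 and 27.2 in knockout animals, against 2.99, 0 and 3.04 in Cre-negative animals (difference 4.02). It was the nearest gene by annotation, at 351183 bp, which does not say which gene the region acts on. A region in an intron of Mreg, which encodes the organelle-transport protein melanoregulin, had 45.3, 47.4 and 43.0 in knockout animals, against 3.73, 1.28 and 5.65 in Cre-negative animals (difference 3.48). The other strongest regions lay nearest to A830029E22Rik, Mroh1, H2afy3, Bod1, Vps53, Xkr5 and Ypel5, with a second region in Ctnnbl1, and differed by 2.88 to 3.92.

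Large differences were also seen in regions with a mean signal under 20. In the body of Esr1, which encodes oestrogen receptor alpha, a region 146861 bp from the start had 33.3, 33.1 and 39.9 in knockout animals, against 0, 2.57 and 0.43 in Cre-negative animals (difference 4.40, adjusted p = 0.00325). In an intron of Vdr, which encodes the vitamin D receptor, signal was 37.1, 37.0 and 12.7 in knockout animals, against 0.75, 1.28 and 0.87 in Cre-negative animals (difference 3.79, adjusted p = 0.00855). In an intron of Usp46, which encodes a deubiquitinase, signal was 33.8, 33.7 and 29.1 in knockout animals, against 1.49, 2.57 and 0 in Cre-negative animals (difference 4.0, adjusted p = 0.00419). The Cre-negative values of these regions rest on a few tags each, and 17 of the 113 raised regions had at least 1 Cre-negative library with no tag. The regions of Vdr and Usp46 overlapped BCL6 peaks with scores of 115 and 658, and that of Esr1 did not.

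**Figure D2:**
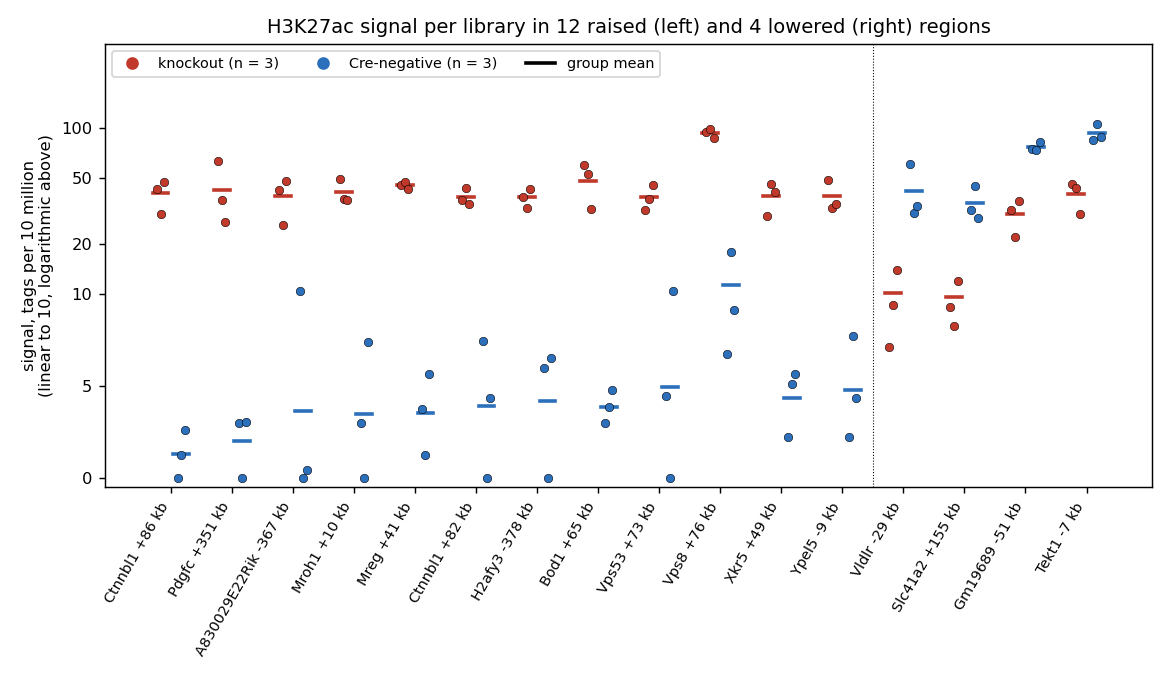
H3K27ac signal in tags per 10000000 (y axis, linear to 10 and logarithmic above) in each knockout and Cre-negative library for the 12 raised and the 4 lowered regions with the largest differences at a mean signal of at least 20, named by nearest gene and distance. Knockout points lie above all Cre-negative points in the raised regions and below them in the lowered regions.

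The lowered regions were few. Upstream of Vldlr, which encodes the very-low-density lipoprotein receptor, signal was 7.09, 9.38 and 13.9 in knockout animals, against 60.5, 30.8 and 33.9 in Cre-negative animals (difference -1.92, adjusted p = 0.0332). Near Tekt1, which encodes a structural protein of cilia, it was 45.8, 43.6 and 30.4 in knockout animals, against 84.3, 105 and 88.2 in Cre-negative animals (difference -1.21, adjusted p = 0.0301). Neither pair of groups overlapped. Tekt1 failed in every fit that left out a library other than Ctr_1801 (adjusted p = 0.0560 to 0.261). The other lowered regions lay nearest to Aldh8a1, Sorl1, Bace1, Dusp10, Slc41a2 and Gm19689, of which those of Sorl1 and Gm19689 overlapped BCL6 peaks. Bace1 encodes the beta-secretase that cleaves the amyloid precursor. The next 8 by p among regions with a mean signal of at least 20, such as those of Raph1 and Cdh13, did not pass, with adjusted p from 0.0596 to 0.0995. The 10 regions of highest signal, at promoters such as those of Flcn, Brd2 and Vamp8, differed by -0.13 to 0.17 and none passed.

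Raised regions were more frequent where BCL6 was bound in wild-type muscle. Of 3412 tested regions that overlapped a BCL6 peak, 47 were raised (1.38%) and 2 lowered (0.0586%). Of 64506 regions with no overlap, 66 were raised (0.102%) and 6 lowered (0.0093%). Regions with a BCL6 peak made up 5.02% of those tested and 41.6% of those raised. The groups did not overlap, with knockout higher, in 17.9% of regions with a peak and in 6.08% of those without; with knockout lower they did not overlap in 3.87% and 5.99%. The median difference was 0.13 with a peak and 0.03 without. Without library Ctr_1801, 128 of 3405 regions with a peak (3.76%) and 207 of 63706 without (0.325%) were raised, counted among regions tested in both fits, and the medians were 0.06 and -0.07. The median signal was 33.3 in regions with a peak and 16.99 in those without, and the part of signal level in these counts was not tested. The peaks came from 1 library of wild-type muscle, so the spread of the BCL6 measurement is not known.

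The raised share was also higher near a peak than far from it, and was highest in the upper bins of peak score. Of the 14852 regions with a BCL6 peak within 10 kb but none inside, 50 (0.337%) were raised, and of the 49654 with none within 10 kb, 16 (0.0322%) were raised. Together, 97 of the 113 raised regions had a peak inside or within 10 kb. Regions with none within 10 kb made up 73.1% of all tested regions and 14.2% of the raised ones. The regions with a peak inside were split into 4 bins at peak scores of 18.4, 23.3 and 39.2, values of the authors' peak list. From lowest to highest, 4 of 954 (0.419%), 1 of 629 (0.159%), 9 of 862 (1.04%) and 33 of 967 (3.41%) were raised. The 2 lowered regions with a peak were both in the highest bin (0.207%). The share of regions with every knockout above every Cre-negative animal was 11, 13.7, 17.7 and 27.6% over the same bins, and the share with every knockout below was 3.98, 4.45, 4.29 and 3.0%. Median signal also rose over the bins, at 31.5, 31.9, 33.4 and 36.1, and its part in these shares was not tested. Acute medians over the bins, from other animals, were 0.05, 0.04, 0.10 and 0.15, beside chronic medians of 0.09, 0.09, 0.14 and 0.24.

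**Figure D3:**
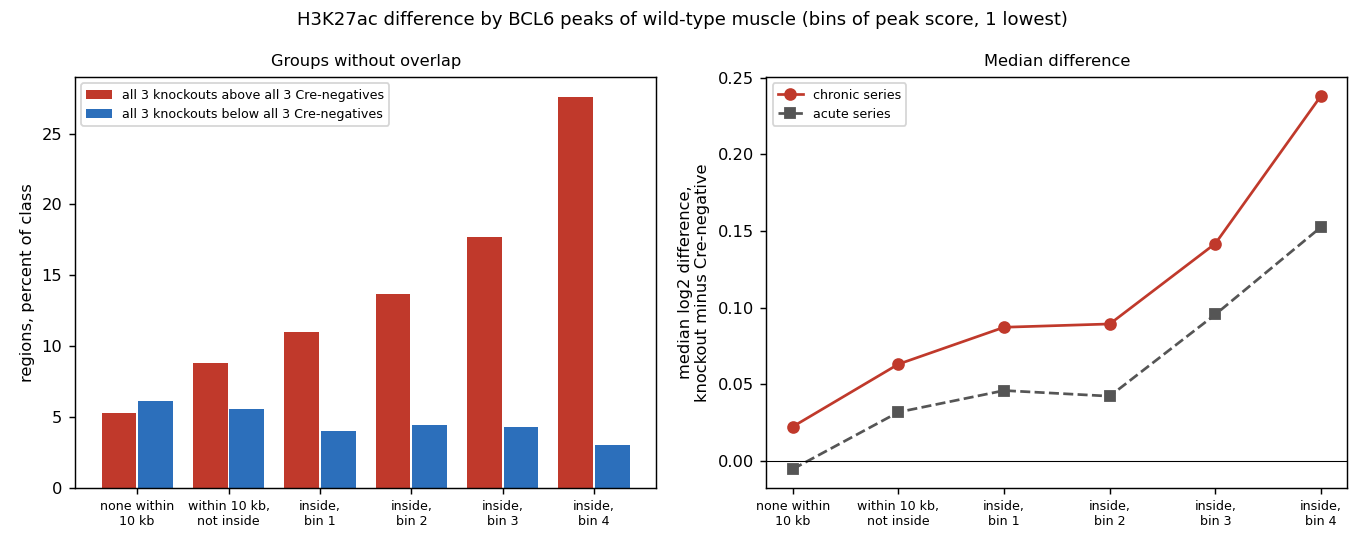
Left, percentage of regions in which all 3 knockout libraries lie above, or all below, all 3 Cre-negative libraries, by the position of BCL6 peaks of wild-type muscle and, for regions with a peak inside, by 4 bins of peak score, lowest to highest. Right, median log2 difference in the same classes in the chronic and the acute series. The share with knockout above is 5.26% with no peak within 10 kb and 27.6% in the top bin, while the share with knockout below is 6.13% and 3.0%.

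Most raised regions with a BCL6 peak were distal. Of 2614 distal regions with a BCL6 peak, 43 (1.64%) were raised and the median difference was 0.19. Of 798 promoter regions with a peak, 4 (0.501%) were raised and the median was 0.06. Taken as 1 value per library, distal regions with a BCL6 peak held 4.72, 4.75 and 4.67% of the signal in regions in knockout animals, against 4.29, 4.24 and 4.01% in Cre-negative animals. The mean was 4.71 ± 0.037% in knockout animals and 4.18 ± 0.15% in Cre-negative animals (SD, n = 3 each), with no overlap and an exact two-sided permutation p of 0.1, the smallest that 3 against 3 can give. Promoters held 39.1 ± 0.50% in knockout animals and 39.5 ± 0.75% in Cre-negative animals (SD, n = 3 each, exact permutation p = 0.5), and their ranges overlapped.

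Genes of growth hormone and insulin-like growth factor signalling were examined from a list of 26, of which 25 were tested on the signal summed over all regions annotated to a gene. Of these, 4 were raised and none lowered, with a list median of 0.11, while 79 of all 15976 genes (0.494%) were raised, 11 (0.0689%) lowered, and the median was 0.02. With TMM scaling and edgeR, 194 genes were raised and 60 lowered, and with quantile normalization 162 and 50. Leaving out 1 library gave 8 raised and 0 lowered genes at the lowest, without imKO_1802, and 133 and 47 at the highest, without Ctr_1801. Of the genes named from the lists here, Cish, Sln and Spns3 passed in all 6 such fits. Akt1, Eif4ebp1, Chrna9 and Stc2 failed only without imKO_1802 (adjusted p = 0.0579 to 0.0615), and the others failed without 2 or more of the libraries. Cish had a summed signal of 272, 240 and 206 in knockout animals, against 97.0, 105 and 66.0 in Cre-negative animals, a difference of 1.43 ± 0.18 (SE, adjusted p = 0.000611). Of its 4 regions those 8908 and 10911 bp downstream of the start were raised, as was a region of the neighbouring Hemk1. Akt1, which encodes the kinase downstream of the insulin and IGF1 receptors, had 289, 300 and 316 in knockout animals, against 157, 104 and 156 in Cre-negative animals (difference 1.135, adjusted p = 0.00126). Pik3ca, the catalytic subunit of phosphoinositide 3-kinase, rose by 0.85 and Igfals by 1.02.

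Socs2 and Igf1 did not pass. The Socs2 promoter had 90.6, 80.0 and 76.5 in knockout animals, against 47.8, 42.3 and 48.2 in Cre-negative animals, with no overlap (difference 0.82, adjusted p = 0.221 over 10436 promoters). Of promoters tested, 9.49% lacked overlap in either direction. None of the 13 tested regions of Igf1 passed, and its promoter had 44.7, 33.7 and 27.8 in knockout animals, against 38.8, 11.6 and 44.8 in Cre-negative animals. These Igf1 ranges overlapped, and the promoter difference was 0.33 with all libraries and -0.26 without Ctr_1801. Bcl6 itself had no promoter region in the table. Its 2 tested regions, 2142 and 16997 bp downstream, differed by 0.16 and 0.40, and neither passed. These regions were not matched to the floxed exons, so they check no deletion. In the authors' deposited table, from other animals, Bcl6 RNA was lower in knockout muscle by a log2 difference of -0.29 (authors' adjusted p = 0.00192).

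Around Socs2, most regions were higher in knockout muscle. Between 50 kb upstream and 350 kb downstream of the Socs2 start, 34 of 40 tested regions were higher, 4 were raised and none lowered, and the median difference was 0.54. In 16 of them every knockout was above every Cre-negative animal, and in 1 every knockout was below. Over all tested regions, 54.0% were higher, 0.166% were raised and the groups lacked overlap in 6.68 and 5.88%. The window was not part of the planned tests and takes in a cluster of raised regions, so these counts are descriptions. By annotation the 4 raised regions lay nearest to Cradd and Gm29684, not to Socs2. The 2 BCL6 peaks of highest score in this window, 1204 and 628, lay 1.62 kb upstream of the start and 272 kb downstream. A raised region 10290 bp inside Cradd, over a BCL6 peak and in an LTR element, had 121, 135 and 128 in knockout animals, against 66.4, 39.8 and 38.2 in Cre-negative animals (difference 1.43). A pair of raised regions next to the downstream peak differed by 2.46 and 2.08.

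**Figure D4:**
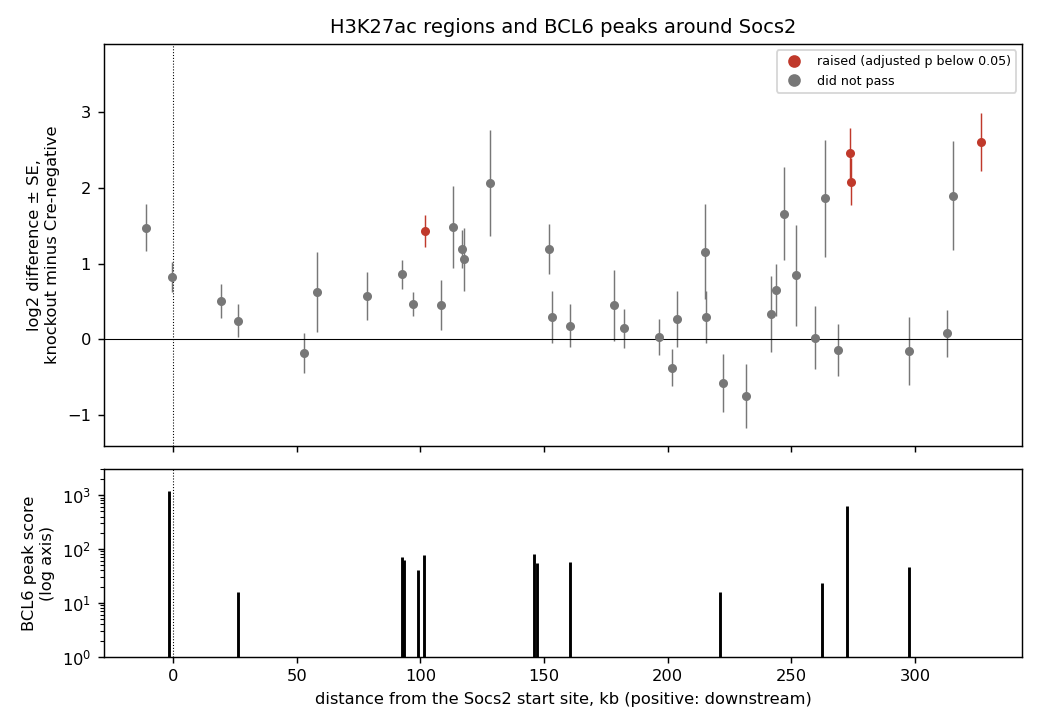
Top, log2 difference ± SE of H3K27ac regions (knockout minus Cre-negative) by distance from the Socs2 start in kb. Bottom, score of BCL6 peaks of wild-type muscle on a logarithmic axis. The 4 raised regions lie 102 to 327 kb downstream, and the peak of highest score lies 1.62 kb upstream of the start.

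Of 18 tested genes of mTORC1 and translation control, 2 were raised and none lowered (median 0.12). Eif4ebp1, which encodes a translation repressor that mTORC1 inactivates, had 111, 121 and 106 in knockout animals, against 30.6, 46.2 and 42.6 in Cre-negative animals (difference 1.496, adjusted p = 0.00126). Sesn1, a stress-induced inhibitor of mTORC1, rose by 0.50 (adjusted p = 0.0456), with 1 raised intron region over a BCL6 peak. Its promoter difference was -0.21 and did not pass. Deptor, an inhibitory mTOR partner, differed by 0.40 and Ddit4 by 0.15, neither of which passed.

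Of 20 tested denervation and regeneration genes, 4 were raised and none lowered (median 0.22). Sln encodes sarcolipin, an inhibitor of the calcium pump of the sarcoplasmic reticulum. It had 70.4, 68.9 and 53.8 in knockout animals, against 11.9, 7.70 and 14.8 in Cre-negative animals (difference 2.42, adjusted p = 0.000611), spread over 3 distal regions of which none passed alone. Chrna9 had 171, 175 and 105 in knockout animals, against 50.8, 56.4 and 41.3 in Cre-negative animals (difference 1.56, adjusted p = 0.00126). Actc1, the cardiac alpha-actin of developing muscle, differed by 2.07 and Gadd45a, a stress-induced gene of atrophying muscle, by 0.64, both past the threshold.

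Other lists moved in at most 1 gene, apart from 15 tested genes chosen from RNA results of this series, of which 4 were raised; that choice is no independent evidence. Those were Spns3, Vdr, Atp1b4 and Usp46. Spns3, which encodes a putative sphingolipid transporter, rose by 1.46 with a summed signal of 271 ± 19.5 in knockout animals and 98.3 ± 13.9 in Cre-negative animals (SD, n = 3 each). Single raised genes were Casq2 among 14 slow-fibre genes, Fbp2 among 27 of glycolysis and glycogen and Stc2 among 20 of the stress response. None passed, in either direction, among 18 fast-fibre, 33 fatty acid oxidation, 23 lipid synthesis, 37 oxidative phosphorylation, 19 atrophy, 15 myostatin pathway, 14 corepressor, 18 immediate early, 18 circadian clock, 13 glucocorticoid response, 29 interferon and NF-kB and 2 imprinted Dlk1-Dio3 genes summed over all their regions. Single regions of Acadl, an acyl-CoA dehydrogenase of fatty acid oxidation (1.77, adjusted p = 0.0146), and of Nfkbia, an inhibitor of NF-kB (1.10, adjusted p = 0.0450), were raised, while their sums did not pass. Among the ubiquitin ligases of muscle atrophy, Trim63 differed by -0.15 and Fbxo32 by -0.08. Mstn, which encodes myostatin, differed by 0.56. Smox had 143, 148 and 152 in knockout animals, against 233, 160 and 267 in Cre-negative animals. These groups did not overlap, as with knockout lower in 930 of all 15976 genes, and the difference of -0.54 did not pass (adjusted p = 0.301). In the authors' deposited table the log2 RNA difference of Smox was -1.07. The 11 genes lowered over all included Igf2bp3, an RNA-binding protein gene (-1.48), Sbk2 (-1.335) and Bace1 (-1.04).

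Markers of muscle fibres were acetylated in all libraries, with a summed signal over 14 genes of 2505 to 2847 in knockout animals and 2403 to 2778 in Cre-negative animals. None of the marker genes of muscle fibres or of 10 other cell types passed. Macrophage and myeloid markers, 9 of 11 genes with regions, had a median difference of -0.26. They summed to 397 to 436 in knockout animals and to 417, 422 and 582 in Cre-negative animals Ctr_1795, Ctr_1801 and Ctr_7362. Of the Cre-negative sums only that of Ctr_7362 lay outside the knockout range. Of these 9 genes, 3 were higher and 6 lower in knockout animals. The groups lacked overlap with knockout lower in 3 and with knockout higher in none, against 930 and 1055 of all 15976 genes. The macrophage marker Adgre1 had a mean of 28.4 in knockout animals and 48.6 in Cre-negative animals and did not pass (adjusted p = 0.394). The part of these markers in the lowered regions was not tested. Endothelial markers summed to 2513 to 2727 in knockout animals and 2326 to 3147 in Cre-negative animals, and fibroblast markers to 1737 to 1959 in knockout animals and 1545 to 2180 in Cre-negative animals. Satellite cell markers were 760 to 869 in knockout animals and 766 to 927 in Cre-negative animals. Only 1 of 9 lymphocyte markers had a region in the table.

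At promoters, summed within 1000 bp of a start, 3 genes of 10436 were raised (0.0287%) and none lowered, with 414 at an unadjusted p below 0.05. Stc2 had 110, 106 and 87.9 in knockout animals, against 32.1, 6.41 and 16.9 in Cre-negative animals (difference 2.64, adjusted p = 0.0199). Aebp1, which encodes an extracellular carboxypeptidase-like protein, had 95.5, 116 and 114 in knockout animals, against 44.0, 52.6 and 48.7 in Cre-negative animals (difference 1.15). The third was 1700012I11Rik, with a difference of 1.70. The groups did not overlap in any of these 3. None passed without any 1 of the knockout libraries. Without library Ctr_1801, 21 promoters were raised and 4 lowered; edgeR called 22 and 3. Chrna9 (3.18), Cyp2j11 (3.48), Usp46 (1.00) and Igfals (1.08) had adjusted p = 0.0543 in the promoter fit and were among the 12 promoter regions that passed in the fit of all regions. So was Gpat3 (0.86, adjusted p = 0.0694 in the promoter fit).

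Some raised regions lay close together. Joining raised regions at most 200 kb apart gave 86 loci, of which 16 held more than 1 and together 43 raised regions, and 43 loci held a BCL6 peak in a raised region. The largest spanned 238 kb of chromosome 11 from Stc2 to Bod1, which encodes a protein of chromosome biorientation. It held 6 raised regions, 4 of them with a BCL6 peak. Of the 20 tested regions inside it or within 100 kb, 17 were higher in knockout muscle, against 54.0% of all tested regions. The loci were built from the raised regions, which are part of these counts, so the counts are descriptions. The Akt1 and Cish loci held 3 raised regions each and none with a BCL6 peak inside. The Ctnnbl1 locus held 4, of which 1 had a peak.

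The acute series used other animals, but the merged regions of both series were defined from its own peaks, so its values are not free of that choice. Of the 113 raised regions, 56 were peaks of the acute knockout alone, 47 of both acute groups and 10 of the acute Cre-negative group alone, classes that made up 29.1, 42.7 and 28.1% of all tested regions. Of the 113, 108 (95.6%) were higher in acute knockout muscle, against 50.9% of all tested regions. Within the classes, 56 of 56 peaks of the acute knockout alone were higher in acute knockout muscle, against 64.9% of all tested regions of that class. The count was 43 of 47 among peaks of both acute groups, against 50.6%, and 9 of 10 among peaks of the acute Cre-negative group alone, against 36.9%. Of the raised regions, 33 of the 112 tested in the acute series were called there. In the acute series 70 of 71480 regions (0.0979%) were called. The acute median over the raised regions was 1.02, and 109 of the 113 differed less in the acute than in the chronic series, on which they were chosen. Of 67 regions raised in the acute series, 63 were higher and 33 raised in the chronic series, with a chronic median of 1.91 beside an acute median of 1.85. Of the 8 lowered regions, 7 were lower in the acute series and 1, that of Gm19689, was called. Across all 67918 regions the differences of the series correlated at r = 0.164, a description across regions that share libraries.

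**Figure D5:**
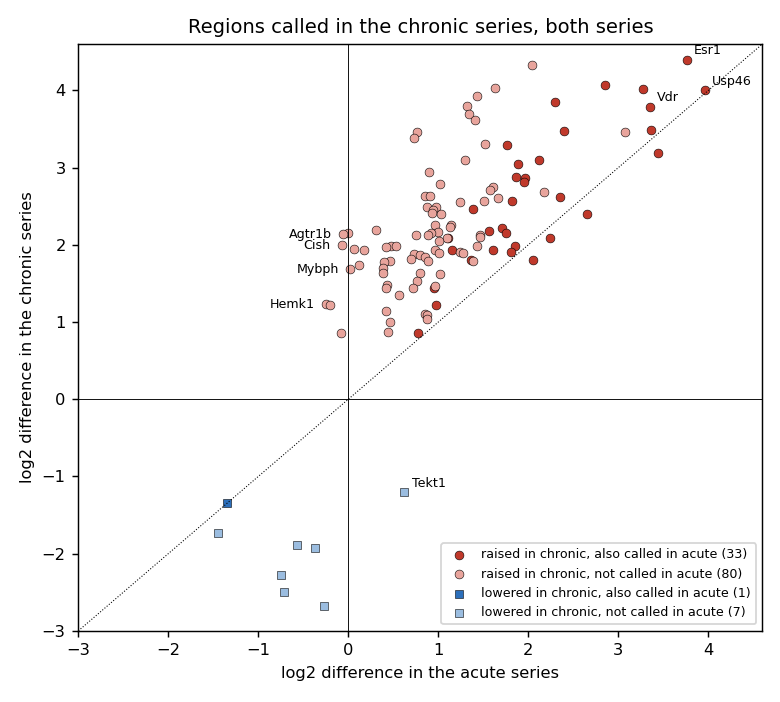
Log2 difference (knockout minus Cre-negative) in the chronic series (y axis) against the acute series (x axis) for the 113 raised and 8 lowered chronic regions, with the line of equal differences. Of the raised regions 108 lie right of 0, and Cish, Hemk1 and Agtr1b lie near or left of it.

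No region differed between the series in the test of the difference itself (limma, 70440 regions, 0 called, 3585 at an unadjusted p below 0.05, smallest adjusted p = 0.228). The edgeR fit called 3 higher and 1 lower in the chronic effect, and the fit without chronic library Ctr_1801 called 3 higher. The Cish region 10911 bp downstream was called in both of these (edgeR adjusted p = 0.00484, limma without Ctr_1801 adjusted p = 0.000405). It had 91.6, 96.0 and 74.6 in chronic knockout animals, against 16.4, 37.2 and 15.2 in chronic Cre-negative animals. In the acute series it had 70.3, 41.5 and 74.1 in knockout animals, against 80.7, 40.0 and 78.6 in Cre-negative animals. The acute groups overlapped, and the chronic Cre-negative animals were the low ones of the 4 groups. A region far upstream of Agtr1b, which encodes an angiotensin II receptor, was also called in both and had 46.4, 49.6 and 42.4 in chronic knockout animals, against 9.70, 10.3 and 9.12 in chronic Cre-negative animals. Its acute values were 40.7, 25.1 and 28.4 in knockout animals, against 28.9, 32.4 and 35.3 in Cre-negative animals. Mybph, which encodes myosin-binding protein H, had an intron region called by edgeR alone, and the Tekt1 region was called lower by edgeR and with quantile normalization.

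RNA differences came from the authors' deposited table of poly(A) RNA, from other TMX-treated animals of the same genotypes (5 knockout and 4 Cre-negative). These are not the chronic RNA libraries, which were not used here. Their time after TMX was not matched to the chronic series, so RNA and acetylation may be of different stages. In the authors' deposited table, 40 of the 85 nearest genes of raised regions with a value had higher RNA in knockout muscle (47.1%) and 4 had lower RNA (4.71%), against 3.37 and 6.92% of the nearest genes of all tested regions. None of the 8 nearest genes of lowered regions had higher RNA and 3 had lower RNA. The 498 genes with higher RNA had a median summed acetylation difference of 0.21, and 45 of them (9.04%) were raised and none lowered. The 1023 genes with lower RNA had a median of -0.01, with 4 raised and 5 lowered, beside a median of 0.02 over all 14789 genes. At promoters, 72.5% of 346 genes with higher RNA and 47.1% of 709 with lower RNA had more acetylation in knockout animals, against 53.3% of all 10303. Groups without overlap and knockout higher made up 19.1% of promoters of genes with higher RNA, 5.78% of those with lower RNA and 4.55% of all. Single genes ran in both directions: in the authors' deposited table the log2 RNA difference was 1.32 for Chrna9 and 0.87 for Akt1, but -0.46 for Cish and -0.45 for Actc1, whose acetylation was raised.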

How the data were processed

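Per the file headers, the authors counted H3K27ac tags with HOMER annotatePeaks on mm10 over merged acute peaks and scaled each library to 10000000 tags, which gives the deposited signal. Bowtie 1.2 is named in the submitters' processing notes, with no role given. The BCL6 peak list holds the authors' peak score. The RNA table holds the authors' log2 differences and adjusted p-values, made with DESeq2 1.14.1 per the submitters' processing notes. Log2(signal + 1) was fitted with limma 3.58.1 (trend, R 4.3.3) over the 6 libraries, after leaving out features with a mean signal under 5, with Benjamini-Hochberg adjustment over all features. Sums per gene covered regions within 1000 bp of a start, or all annotated regions. BCL6 peaks had to overlap a region by 1 base. Since signal gave whole tags in 100% of values (within 0.02), edgeR 4.0.16 and DESeq2 1.42.0 were run on recovered counts as alternatives. Depth was 7794885 to 23016334 tags, and 1 tag was worth 0.434 to 1.28 units. The difference between series was a limma interaction over 12 libraries. Named were up to 12 regions of largest difference per direction at a mean of at least 20, the 10 of highest signal, all regions of Bcl6 and Igf1, 16 genes, and up to 3 promoters of smallest p per list; regions of other genes, such as Esr1, Vdr and Usp46, and genes called over all regions were chosen after their values were seen. The libraries, regions and 31 gene lists were chosen with earlier results of these data known. The fits were tested on simulated data. Input libraries and the chronic RNA libraries were not used here. The result of the extracellular matrix list is not reported here.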

Additional observations from a re-analysis of the deposited data

How the results depend on the processing

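No paired analysis was possible because knockout and Cre-negative animals carry different numbers. Raised and lowered regions numbered 216 and 24 with a pseudocount of 5, 77 and 5 with 0.5, 257 and 50 with quantile normalization, 0 and 0 with a constant variance prior (4774 at an unadjusted p below 0.05), 325 and 55 with edgeR, 271 and 52 with DESeq2, 382 and 95 with library weights and 158 and 18 when scaled to tags inside regions. Leaving out 1 animal gave 0 to 336 raised and 0 to 64 lowered regions, with the highest counts without Cre-negative Ctr_1801 and the lowest without knockout imKO_1794 or imKO_1802. Library weights, scaling to tags inside regions, the edgeR fit of the difference between series and the counts by BCL6 class without Ctr_1801 were chosen after seeing the data. Over these settings all 121 regions kept their direction.

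Raised and lowered promoters numbered 7 and 0 with a pseudocount of 5, 5 and 0 with no filter, 19 and 1 with quantile normalization, 0 and 0 with a constant prior (491 at an unadjusted p below 0.05), 22 and 3 with edgeR, 26 and 3 with DESeq2, 27 and 6 with weights, 16 and 1 with scaling inside regions, 1 and 0 within 500 bp and 11 and 0 within 2000 bp; leaving out 1 animal gave 0 to 21 and 0 to 4. Genes over all regions numbered 162 and 50 with quantile normalization, 14 and 2 with a constant prior, 194 and 60 with edgeR, 157 and 43 with DESeq2, 211 and 91 with weights and 141 and 38 with scaling inside regions; leaving out 1 animal gave 8 to 133 and 0 to 47. The difference between series gave 0 and 1 with quantile normalization, 3 and 1 with edgeR, and 0 to 3 and 0 to 0 leaving out 1 library.

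Raised regions by class, with quantile normalization and then without Ctr_1801, were 107 and 128 with a BCL6 peak, 150 and 207 without, 22 and 24 in promoters, 133 and 177 in introns, 88 and 118 between genes, 14 and 16 in exons or transcript ends and 19 and 28 in LTR elements. The cause of these shifts was not tested.

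Uncalled genes whose sign turned were, at promoters, Igf1 (-0.0495 with weights, -0.256 to 0.677 leaving out 1 animal, lowest without Ctr_1801), Trim63 (-0.430 to 0.0863, highest without Ctr_1795), Sesn1 (0.10 within 2000 bp) and Flrt1 (-0.393 to 0.0796, highest without imKO_1803, 0.0337 with weights, 0.35 within 2000 bp). Over all regions they were Igf1 (-0.227 to 0.0571, highest without Ctr_7362), Fbxo32 (-0.245 to 0.0599, highest without Ctr_1795) and Flrt1 (-0.0138 with quantile normalization, -0.00886 with edgeR, -0.00881 with DESeq2, -0.0538 with weights, -0.0206 with scaling inside regions, -0.0597 to 0.0603 leaving out 1 animal).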

Other observations

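Genes raised over all their regions also included several that belong to no list above. Rsph6a, which encodes a protein of the sperm flagellum, had 72.0, 77.8 and 54.4 units of signal in knockout animals, against 5.97, 8.98 and 12.2 in Cre-negative animals (log2 difference 2.81). Arid3b and Arid5a, which encode DNA-binding proteins with an AT-rich interaction domain, rose by 0.97 and 0.95. Tet1, which encodes an enzyme that oxidises methylcytosine, rose by 0.93, and Car3, a carbonic anhydrase of slow muscle fibres, rose by 1.15. In the authors' deposited table the log2 RNA differences of Arid3b and Arid5a were 1.497 and 0.64. These genes were chosen after their values were seen.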
